A study of Mus musculus with 6 samples.

Results

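The genes described here are *Lgals1*, *Lgals3*, *Lgals8* and *Lgals9*, which encode galectins, *Lgals3bp*, which encodes a galectin-binding glycoprotein, and *Itln1*, which encodes the lectin intelectin-1. They are 6 of the 54532 gene identifiers counted in RNA of FLT3L-derived cDC1s, and all 6 are among the 12894 genes that passed the filter on low counts. *Itln1* passed it through the KO libraries alone. The 6 genes were chosen by name, with their values in the genotype comparison already known, so their differences between genotypes are given as a description without a test.

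Type 1 conventional dendritic cells (cDC1s) are antigen-presenting cells specialised in cross-presentation to CD8+ T cells. They were grown from bone marrow for 8 days with FLT3L at 80 ng/mL, a cytokine that drives dendritic cell development, and sorted as CD24+CD11c+ cells without B220, CD115 or CD172a. The 3 libraries labelled WT came from c-Jun/JunB fl/fl marrow, which carries floxed c-Jun and JunB but no Cre, and the 3 labelled KO from c-Jun/JunB fl/fl Itgax-Cre marrow, in which Cre recombinase under the *Itgax* (CD11c) promoter is meant to delete both genes in CD11c+ cells. The study used adult mice of both sexes on a mixed 129 Sv and C57BL/6 background, and the paper counts replicates of these libraries as individual mice. Hereafter the libraries are WT1, WT2, WT3, KO1, KO2 and KO3. The comparison asks how these lectin genes differ between cDC1s labelled WT and cDC1s labelled KO for c-Jun and JunB, a pair of AP-1 transcription factors.

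Galectins are small lectins that bind galactose-containing sugar chains. They are made in the cytosol, leave the cell without a signal peptide, cross-link glycoproteins on cell surfaces and, inside cells, bind sugars that become exposed when an endosome or lysosome is damaged. Galectin-1 is the dimeric prototype, galectin-3 has a carbohydrate-recognition domain joined to a long tail through which it forms oligomers, and galectin-8 and galectin-9 are tandem-repeat galectins, in which a linker joins a pair of different carbohydrate-recognition domains. Lgals3bp is a secreted ligand of galectins, and intelectin-1 is a lectin of another fold that binds sugars of microbial surfaces and is best known from intestinal goblet and Paneth cells.

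Several of these genes are known to respond to interferon, so RefSeq promoter windows (GRCm38.p6) were searched. Each runs from 250 bases before to 50 after the start that RefSeq gives for the gene. Both strands were searched for the core of the interferon-stimulated response element, GAAANNGAAA, for the half-site of interferon regulatory factors, AANNGAAA, and for the AP-1 site TGANTCA. Windows were found for 5 of the 6 genes, all but *Lgals1*. The sites are shown with the 30 bases of the gene strand around them, the matched letters in capitals. They were chosen to show which of the genes hold such letters.
Lgals9, response element core from -55 to -46, chr11:78984960-78984989, minus strand: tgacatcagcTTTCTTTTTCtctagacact
Lgals9, response element core from 16 to 25, chr11:78984890-78984919, minus strand: atagctgtggTTTCTGTTTCctagctcagc
Lgals9, half-site from -151 to -144, chr11:78985056-78985085, minus strand: agagcacaggAAGGGAAAgtcaaggcagag
Lgals3bp, half-site from -14 to -7, chr11:118401954-118401983, minus strand: gttttctgaaAATCGAAActaggtgaggtt
Itln1, half-site from -234 to -227, chr1:171535509-171535538, minus strand: ggatttttttAAGAGAAAtatataatttac
Positions count from the RefSeq start, which can differ from the edge of the gene span given below. The half-site of *Lgals3bp* lies inside that span. Both response element cores of *Lgals9* lie on the strand opposite to the gene, and each of them contains a half-site, which is not shown again. Of all 32851 windows of this length, 3.44% held the response element core, 23.9% the half-site and 7.81% the AP-1 site. *Lgals9* was the only one of the 5 windows with the response element core. The windows of *Lgals3* and *Lgals8* held none of the 3 motifs, and the AP-1 letters were in none of the 5. A match is a description of letters and was not tested as a binding site.

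Reads on genes ran from 21693217 to 26788296 per library, 79.1 to 79.7% of all reads. Values are given as CPM, the reads of a gene relative to library size, after TMM scaling, with the SD over 3 libraries. The test between genotypes was edgeR's quasi-likelihood test, fitted to the deposited counts of all 12894 genes, and a call needed both a Benjamini-Hochberg adjusted p under 0.05 and a change of 1 or more on the log2 scale. In total 240 genes were called, 128 higher and 112 lower in KO. *Jun* was at 52.5 to 70.9 CPM in WT and 44.3 to 60.5 CPM in KO (log2 fold change −0.29, edgeR adjusted p = 0.345), and *Junb* at 274 to 413 and 110 to 212 CPM (−1.02, edgeR adjusted p = 0.0729). The sources used here do not give which bases the deletion removes, so the remaining reads do not measure its extent. By quantitative RT-PCR the paper reports deletion of both genes in cDC1s and cDC2s sorted from mice. It also measured both mRNAs by RT-qPCR in cDC1s of FLT3L cultures. The reads of *Jun* overlapped between genotypes, and WT and KO stand for the labels of the libraries throughout. *Itgax*, whose promoter drives the Cre, fell from 114 to 153 CPM in WT to 44.8 to 69.0 CPM in KO (log2 fold change −1.22 ± 0.17 (SE), edgeR adjusted p = 0.0147, and 0.0526, 0.0781 and 0.0505 without WT1, WT2 and WT3). Of 10 cDC1 marker genes, all tested, 3 fell at an adjusted p under 0.05 and none rose at it. By sign alone 6 were lower and 4 higher in KO, with a median log2 fold change of −0.20. *Cadm1* was higher in every KO library, at 213 to 231 CPM in WT and 266 to 305 CPM in KO (log2 fold change 0.32, edgeR adjusted p = 0.0615). The 3 that fell were *Xcr1*, at 421 to 475 CPM in WT and 122 to 201 CPM in KO (log2 fold change −1.42, edgeR adjusted p = 0.00812), *Snx22*, at 407 to 462 and 194 to 303 CPM (−0.86, adjusted p = 0.0375), and *Tlr3*, at 456 to 483 and 220 to 308 CPM (−0.77, adjusted p = 0.0226). Without WT1 and without WT2 none of the 3 passed (adjusted p of 0.0501 to 0.149). Every library held cDC1 genes at a high level, with *Irf8* at 2653 to 2773 CPM in WT and 2729 to 2879 CPM in KO.

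Per kilobase of exon, the scale on which different genes can be compared, *Lgals3* had by far the highest level of the 6 genes in every library. It stood at 948 ± 33.7 CPM per kb in WT and 706 ± 75.7 in KO, which placed it 27th and 39th from the top among 12887 genes. The galectin next to it in the order of levels was *Lgals1*, at 54.5 ± 7.49 CPM per kb in WT and 59.7 ± 23.0 in KO. *Lgals9* stood at 26.1 ± 4.29 CPM per kb in WT and 11.1 ± 2.56 in KO. *Lgals8* was the lowest galectin, at 4.26 ± 1.18 and 5.57 ± 1.27 CPM per kb. *Lgals3* thus held 91.5 to 92.2% of the summed level of the 4 galectins in the WT libraries and 88.0 to 91.8% in the KO libraries. *Lgals3bp* had 60.2 ± 7.20 CPM per kb in WT and 36.2 ± 5.32 in KO, and *Itln1* had 0 and 1.89 ± 1.00.

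**Figure D1:**
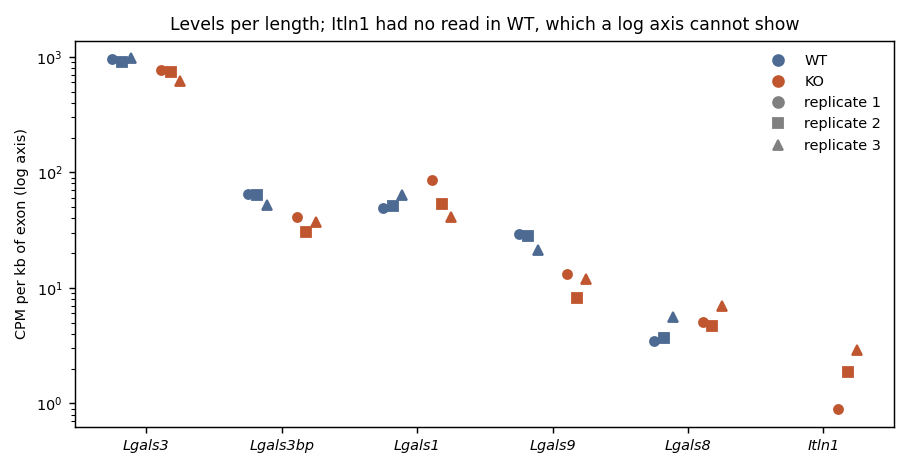
Level of each gene per kilobase of merged exon (CPM per kb, log axis), one point per library, WT in blue and KO in orange, with the genes in the order of their WT means. *Lgals3* is the highest in all 6 libraries, *Lgals3bp* and *Lgals1* overlap, and *Itln1* has points for the KO libraries only.

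The order of levels in WT was *Lgals3*, *Lgals3bp*, *Lgals1*, *Lgals9*, *Lgals8* and *Itln1*. In KO *Lgals1* stood before *Lgals3bp*. Neighbours in this order did not overlap over the libraries of a genotype, with the exception of *Lgals3bp* and *Lgals1*. These spanned 52.0 to 65.3 and 49.3 to 63.1 CPM per kb in WT, and 30.4 to 40.9 and 40.7 to 85.3 CPM per kb in KO, so their order is not set beyond the spread of the libraries. The rank of *Lgals9* among the 12887 genes was 1890 in WT and 4301 in KO, that of *Lgals3bp* 714 and 1299, that of *Lgals1* 787 and 707, and that of *Lgals8* 7432 and 6614.

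Between genotypes, *Lgals3*, *Lgals9* and *Lgals3bp* were lower in every KO library than in any WT library, *Itln1* had reads in KO alone, and *Lgals1* and *Lgals8* overlapped. Of all tested genes 1.86% were called, 2.03% had an adjusted p under 0.05 with a higher level in KO, 1.85% had one with a lower level in KO, and 26.0% had libraries that did not overlap between genotypes. Of the 6 genes, 2 were called, 1 was higher and 3 were lower at an adjusted p under 0.05, and 4 did not overlap. The genes were chosen with this comparison known, so nothing is read from these counts.

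**Figure D2:**
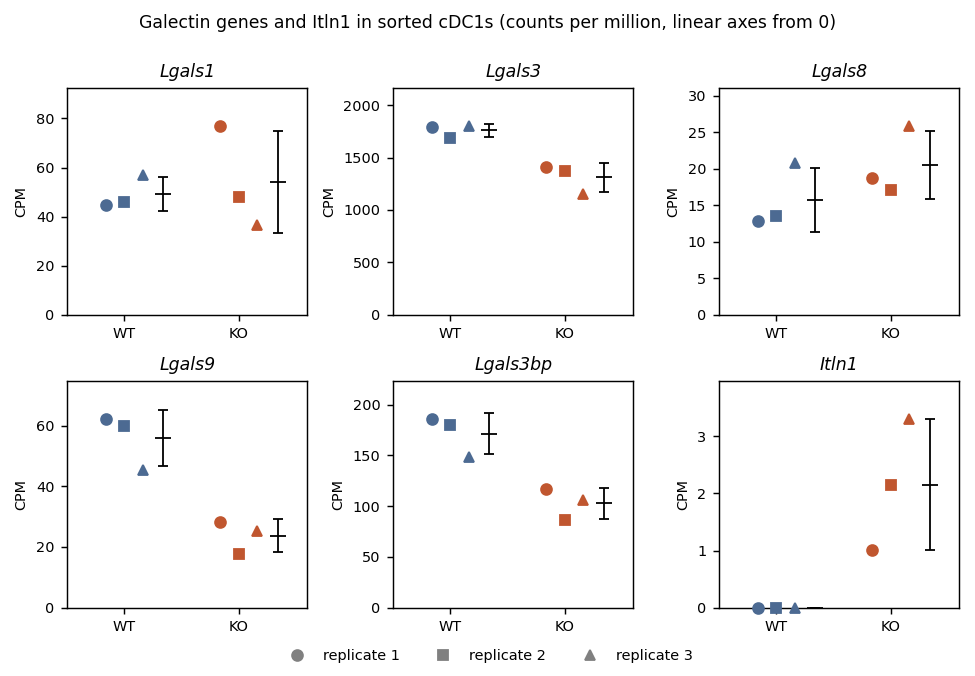
CPM of the 6 genes in each library (linear axes from 0, symbols mark the replicate number, black bars the mean and SD of 3 libraries). The KO libraries lie below the WT libraries for *Lgals3*, *Lgals9* and *Lgals3bp*, overlap with them for *Lgals1* and *Lgals8*, and are the only ones with *Itln1* reads.

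*Lgals9* (ENSMUSG00000001123.15, GRCm38 chr11:78962974-78984946, minus strand) encodes galectin-9, a ligand described for the receptor TIM-3. Its level was 62.2, 60.0 and 45.3 CPM in WT1, WT2 and WT3, and 28.2, 17.6 and 25.3 CPM in KO1, KO2 and KO3. WT3 was the lowest of the WT libraries and KO2 the lowest of all. The means were 55.8 ± 9.18 and 23.7 ± 5.46 CPM, 2.36-fold lower in KO (log2 fold change −1.24 ± 0.20 (SE)). The estimate lay between −1.38 and −1.06 when each library was left out in turn.

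*Lgals3bp* (ENSMUSG00000033880.11, chr11:118392751-118402092, minus strand), on the same chromosome as *Lgals9* but far from it, was at 186, 180 and 148 CPM in the WT libraries and 116, 86.6 and 106 CPM in the KO libraries. The libraries stood in the same order as for *Lgals9*, from WT1 at the top over WT2, WT3, KO1 and KO3 to KO2. The means were 171 ± 20.5 and 103 ± 15.1 CPM (log2 fold change −0.74 ± 0.13 (SE)). The ratio of the CPM of *Lgals3bp* to that of *Lgals9* was 2.99, 3.01 and 3.27 in WT and 4.14, 4.92 and 4.18 in KO, so that the fold difference between genotypes was smaller in *Lgals3bp*, at 1.67-fold against 2.36-fold.

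**Figure D3:**
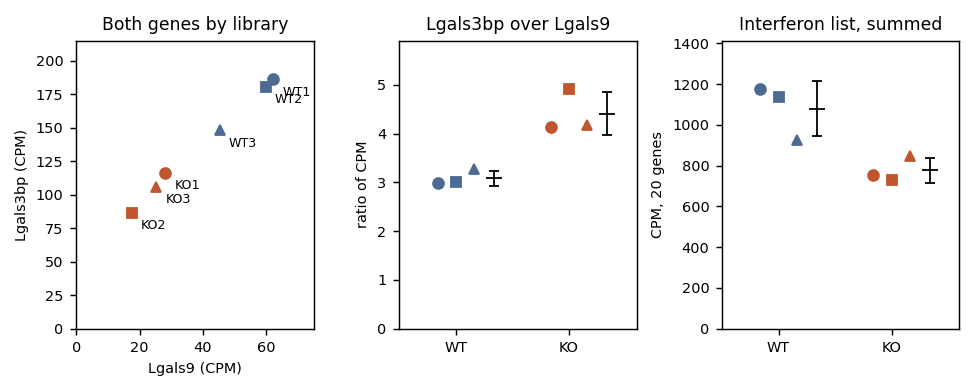
Left, CPM of *Lgals9* against that of *Lgals3bp* in each library. Middle and right, the ratio of both and the summed CPM of 20 interferon-induced genes by library, with the mean and SD of 3 libraries in black. The libraries line up in the same order for both genes, and WT3 is the lowest WT library for both and for the summed list. *Stat2* makes up the largest part of the sum.

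Of 20 listed genes that interferon is known to induce, all tested, 12 fell at an adjusted p under 0.05, 10 of which were called, and none rose. Among the other 8, *Ifi44* had a log2 fold change of 0.72 (edgeR adjusted p = 0.284) with every KO library above every WT library, and *Stat2* one of −0.02 (adjusted p = 0.939). The median log2 fold change of the list was −1.37, beside 0.0018 over all tested genes. The 3 with the largest change were *Rtp4* (log2 fold change −2.97, edgeR adjusted p = 0.0116), a chaperone of G protein-coupled receptors, and *Oas2* (−2.76, adjusted p = 0.00793) and *Oas3* (−2.40, adjusted p = 0.0237), which make the second messenger that activates RNase L. *Rtp4* did not pass without WT1 (0.073) or WT2 (0.0645), nor *Oas3* with a replicate block (0.0512) or without WT1 (0.122), WT2 (0.12) or WT3 (0.05002). The count was 5 with a replicate block, and 2 without WT1 and 2 without WT2. The summed level of the list was 1177, 1135 and 925 CPM in WT1, WT2 and WT3, and 754, 728 and 845 CPM in KO1, KO2 and KO3. As for *Lgals9* and *Lgals3bp*, WT3 was the lowest WT library and KO2 the lowest KO library, but KO3 rather than KO1 was the highest KO library. *Stat2* was the largest part of this sum. It held 332, 345 and 313 CPM in WT1, WT2 and WT3, and 276, 329 and 370 CPM in KO1, KO2 and KO3. The order of KO1 and KO3 in the sum thus depends on *Stat2*, and the sum is no even view of the list. Whether the interferon response has a part in the difference of either gene was not tested.

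*Lgals3* (ENSMUSG00000050335.17, chr14:47367751-47386160, plus strand) encodes galectin-3, known as an abundant product of macrophages and other myeloid cells. It was at 1790, 1689 and 1804 CPM in WT and 1415, 1368 and 1151 CPM in KO. The WT libraries lay close together, with a coefficient of variation of 3.55%, and the KO libraries, at 10.7%, all lay below them. The means were 1761 ± 62.6 and 1311 ± 141 CPM, 1.34-fold lower in KO (log2 fold change −0.43 ± 0.085 (SE)). Per library the order differed from that of *Lgals9*, as KO3 and not KO2 was the lowest. In bulk RNA of a sorted population, a lower share of cells that express a gene and less RNA of it per cell cannot be told apart.

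Markers of other cells were therefore listed beside *Lgals3*. Of 12 monocyte and macrophage genes, 8 were tested and 1 passed, *Adgre1* (F4/80), which rose from 25.2 ± 3.82 to 47.2 ± 8.85 CPM (log2 fold change 0.91, edgeR adjusted p = 0.0317, and 0.148 without WT2, the highest over the alternatives). Lysozyme (*Lyz2*) made up most of the summed list, with 1760 to 1939 CPM in WT and 1895 to 2520 CPM in KO (edgeR adjusted p = 0.233). *Csf1r* was at 3.59 to 6.53 CPM in WT and 5.64 to 6.81 CPM in KO, and *Ly6c2* at 2.15 to 4.17 and 1.59 to 2.52 CPM. *Cd14* was at 12.2 CPM in KO3 and at most 1.53 CPM elsewhere, and *Cx3cr1* at 7.14 CPM in KO3 and at most 2.97 CPM elsewhere. *Fcgr1*, *C1qa*, *C1qb*, *C1qc* and *Mertk* had at most 1.19 CPM in any library. The summed list was at 1795 to 1978 CPM in WT and 1967 to 2595 CPM in KO, and the genotypes overlapped. Its part in the difference of *Lgals3* was not tested. Of 10 cDC2 genes, all tested, 3 rose at an adjusted p under 0.05 and none fell at it. They were *Cd209a* (49.2 ± 17.4 to 234 ± 36.2 CPM, log2 fold change 2.25, edgeR adjusted p = 0.00556), *Cd4* (1.04 ± 0.61 to 5.14 ± 1.45 CPM, 2.30, edgeR adjusted p = 0.0339) and *Klf4* (82.7 ± 14.0 to 163 ± 36.4 CPM, 0.97, edgeR adjusted p = 0.0321). *Cd4* did not pass without WT1 (0.145), WT2 (0.173) or KO3 (0.0712), and *Klf4* did not without WT1 (0.158), WT2 (0.166), WT3 (0.0558) or KO3 (0.0502). By sign alone 8 cDC2 genes were higher and 2 lower in KO. *Sirpa* (CD172a) was lower, at 44.7 to 60.5 CPM in WT and 40.9 to 46.8 CPM in KO (log2 fold change −0.21, edgeR adjusted p = 0.430). *Esam* was lower too (−0.16, edgeR adjusted p = 0.945), with at most 1.07 CPM in any library. *Irf4* was higher in every KO library but did not pass, at 27.4 to 43.9 and 55.6 to 120 CPM (1.26, edgeR adjusted p = 0.0699). The summed cDC2 list was at 225 to 371 CPM in WT and 520 to 754 CPM in KO. Its part in the difference of any of the 6 genes was not tested.

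*Lgals1* (ENSMUSG00000068220.6, chr15:78926725-78930465, plus strand) encodes galectin-1, known as an inhibitor of T cell responses. Its values were 44.5, 46.1 and 57.0 CPM in WT and 77.0, 48.1 and 36.7 CPM in KO, so that the highest and the lowest library were both KO and the genotypes overlapped. The means were 49.2 ± 6.76 and 53.9 ± 20.8 CPM, with a coefficient of variation of 13.7% in WT and 38.5% in KO. The log2 fold change was 0.13 ± 0.26 (SE), and it was −0.21 without KO1 and 0.35 without KO3. No direction can thus be given for *Lgals1* beyond the spread of the libraries.

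*Lgals8* (ENSMUSG00000057554.13, chr13:12439415-12464944, minus strand) encodes galectin-8, which binds sugars on damaged endosomes and recruits the autophagy machinery. It was at 12.8, 13.6 and 20.7 CPM in WT and 18.7, 17.1 and 25.9 CPM in KO. In both genotypes the library numbered 3 was the highest, and WT3 lay above KO1 and KO2. The log2 fold change was 0.39 ± 0.23 (SE), 0.64 without WT3 and 0.19 without KO3. Each library held 333 to 587 reads of this gene, so that counting error was small beside the spread between libraries.

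*Itln1* (ENSMUSG00000038209.12, chr1:171518122-171535294, minus strand) had 0 reads in each WT library. The KO libraries held 25, 46 and 75 reads, which are 1.01, 2.15 and 3.30 CPM, with a mean of 2.15 ± 1.14 CPM and a coefficient of variation of 53.1%. A count of 0 over the 3 WT libraries allows up to 3 reads, or 0.0392 CPM, so that the KO mean was at least 54.9-fold higher. The bound was 35.5-fold to 69.5-fold when each library was left out in turn, and the lowest came without WT2. It was 36.3-fold without WT1. This limit covers counting error only. Even in KO the gene stayed low, with a level per kb above that of only 27.5% of the genes. Reads of near-identical copies cannot be told apart from those of *Itln1*. Strains of the 129 group are known to carry further intelectin genes that the C57BL/6J reference lacks, and the strain at this locus was not tested in these mice.

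KO2 stood apart from the other libraries in markers of other cells and in 1 cDC1 gene. The summed level of 6 basophil and mast cell genes was 16.8 CPM there and 0.463 to 2.47 CPM elsewhere, that of 6 B cell genes 49.9 CPM and 12.8 to 30.9 CPM elsewhere, and the cDC1 gene *Itgae* (CD103) was at 892 CPM beside 151 to 258 CPM. *Itln1* in KO2 lay between KO1 and KO3, and the part of these markers in its KO reads was not tested. Without KO2 the log2 fold change was −1.06 for *Lgals9*, −0.63 for *Lgals3bp*, −0.46 for *Lgals3*, 0.50 for *Lgals8* and 0.21 for *Lgals1*, and the bound for *Itln1* was 55.0-fold. Neutrophil genes (8 listed) summed to at most 17.5 CPM in any library, and T and NK cell genes (6 listed) to at most 3.87 CPM.

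**Figure D4:**
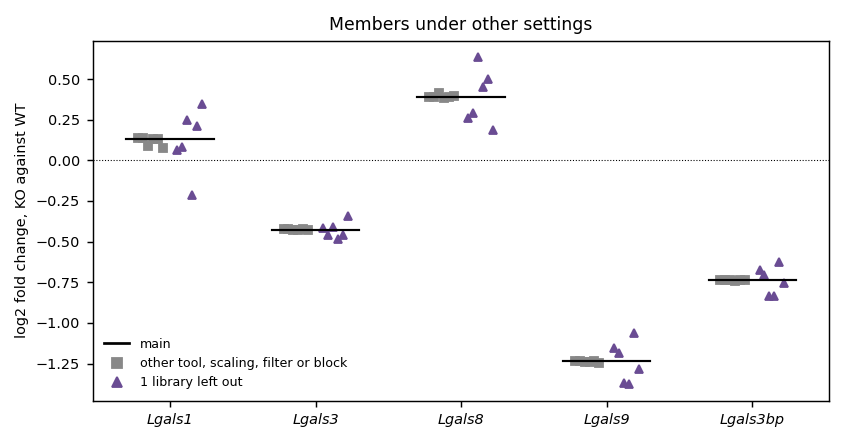
Log2 fold change of 5 of the genes between KO and WT under the main setting (black line), under 6 other tools, scalings, filters or a block (grey squares) and with 1 library left out (purple triangles). The dotted line marks no difference. *Lgals1* crosses it without KO1, the other 4 genes keep their side.

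The genes whose log2 CPM most resembled that of each gene over the 6 libraries, by Pearson correlation among 11170 protein-coding genes, are given as a description. All 6 libraries enter, so a gene that differs between genotypes resembles any other that does. *Lgals9* and *Lgals3bp* were each nearest to the other (r = 0.998). Next came *Tceanc2* and *Cmpk2*, a mitochondrial nucleotide kinase known to be induced by interferon, for *Lgals9* (r = 0.996 and 0.995), and *Cd99l2* and *Cmpk2* for *Lgals3bp* (r = 0.998 and 0.996). The nearest to *Lgals3* were *Arf1*, a GTPase of Golgi traffic, *Ndel1*, a dynein regulator, and *Ddx50*, an RNA helicase (r = 0.997, 0.996 and 0.995). For *Itln1* they were *Tlr1*, a receptor for bacterial lipopeptides, *Dvl1* of the Wnt pathway and the ubiquitin ligase *Rnf25* (r = 0.998 for each of the 3). As *Itln1* had no read in WT, its WT values here are set by the prior count alone. Its r thus rests on the KO libraries and the step between genotypes. *Lgals1* was nearest to *Fam53c*, *Mrps24* and *Wtap* (r = 0.984, 0.964 and 0.964), and *Lgals8* to *Lpin1*, *Cd163* and *Gpalpp1* (r = 0.993, 0.988 and 0.986), of which *Cd163* had under 1 CPM in the mean of either genotype. Of these genes *Tlr1* rose (25.5 to 70.0 CPM in the mean, edgeR adjusted p = 0.0042), as did *Dvl1* (51.5 to 64.8 CPM, adjusted p = 0.0303), while *Tceanc2* (45.7 to 31.8 CPM, adjusted p = 0.0317) and *Cmpk2* (17.3 to 6.10 CPM, adjusted p = 0.0376) fell. *Tlr1* passed under 12 of 12 alternatives. With a replicate block *Dvl1* (0.0657) and *Tceanc2* (0.0531) did not pass, and these and *Cmpk2* did not pass without WT1, WT2, WT3 or KO3, with an adjusted p of up to 0.172.

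The other galectin genes were low or absent. *Lgalsl*, a galectin-related gene whose product lacks lectin activity, was at 3.32, 2.41 and 2.08 CPM in WT and 5.23, 12.6 and 5.15 CPM in KO, with each KO library above each WT library and KO2 the highest. Its log2 fold change of 1.55 ± 0.40 (SE) had an edgeR adjusted p of 0.0876, and one of 0.00405 to 0.294 over the alternatives. *Lgals4*, a galectin of the gut epithelium, was at 0.927 to 1.23 CPM in WT and 0.852 to 2.16 CPM in KO (log2 fold change 0.32, edgeR adjusted p = 0.715). *Grifin*, a galectin-like lens protein, had at most 0.386 CPM and was not tested, *Lgals2* had 2 reads, all in KO2, and *Lgals7* had 1 read, in KO1. *Lgals12* had none in the 6 libraries, and *Lgals6*, which some strains carry as a near copy of *Lgals4*, was not in the annotation used here. Of the 2 tested genes none passed by edgeR, 1 had an unadjusted p under 0.05, and DESeq2 passed *Lgalsl*.

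Counter-receptors, the glycoproteins on which galectins are known to act, showed no change past the test. Of 12 listed genes 11 were tested, and none reached an adjusted p under 0.05 by edgeR or limma-voom. The unadjusted p was under 0.05 for 4 of the 11, beside 19.4% of all tested genes, and DESeq2 passed 2 of them, *Ptprc* and *Nrp1*. The median log2 fold change was −0.08, with 4 genes higher and 7 lower in KO. *Tnfrsf9* had the largest change, at 3.48 to 9.64 CPM in WT and 0.568 to 2.99 CPM in KO. Its log2 fold change was −1.66 ± 0.62 (SE), with an edgeR adjusted p of 0.21. *Havcr2*, which encodes TIM-3, was at 253 to 276 CPM in WT and 258 to 288 CPM in KO (log2 fold change 0.03 ± 0.065 (SE), adjusted p = 0.848). *Cd44* was at 263 to 310 and 266 to 305 CPM, and *Ptprc* (CD45) at 926 to 1012 and 1097 to 1260 CPM (log2 fold change 0.25, edgeR adjusted p = 0.122). *Nrp1* was at 38.0 to 42.3 CPM in WT and at 18.0, 20.5 and 34.7 CPM in KO (log2 fold change −0.70, edgeR adjusted p = 0.166, and 0.00808 without KO3), with every KO library below every WT library.

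Enzymes that build the sugar chains to which galectins bind were tested in 21 of 23 cases, and 2 rose and 1 fell at an adjusted p under 0.05. Of all tested genes, 2.03% rose and 1.85% fell at this limit. *Gcnt1*, which starts the core 2 branch of O-glycans and so makes galectin ligands, was at 110, 117 and 114 CPM in WT and 183, 170 and 212 CPM in KO (log2 fold change 0.72 ± 0.088 (SE), edgeR adjusted p = 0.00798). *Gcnt2*, which branches poly-N-acetyllactosamine chains, was at 98.2, 108 and 97.7 CPM in WT and 133, 157 and 149 CPM in KO (0.53 ± 0.081, adjusted p = 0.0181). Every KO library lay above every WT library in both, where 26.0% of all tested genes did not overlap in either direction. *St6gal1*, which caps galactose with alpha-2,6-linked sialic acid and is known to block binding of several galectins, was at 42.2, 43.1 and 59.5 CPM in WT and 14.4, 24.3 and 20.3 CPM in KO (−1.30 ± 0.22, edgeR adjusted p = 0.0234), and was the only called gene of the list. *St3gal4*, which adds alpha-2,3-linked sialic acid, had a log2 fold change of 0.45 and an edgeR adjusted p of 0.0605, which was 0.0294 with a replicate block, 0.00303 with DESeq2, 0.0286 without a filter and 0.0135 without KO1.

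The other 17 tested enzymes, *Mgat5* and the *B4galt* genes included, did not pass, and the median log2 fold change of the 21 was −0.04. Without WT1 and without WT2 none of the 21 passed. The adjusted p rose over 0.05 for *Gcnt1* without WT1 (0.0656) and WT2 (0.0612), for *Gcnt2* without WT1 (0.120), WT2 (0.077) and WT3 (0.0816), and for *St6gal1* without WT1 (0.0945), WT2 (0.0992), WT3 (0.0763) and KO3 (0.0641). The list holds enzymes with opposite effects on galectin ligands, and these counts say nothing of the sugar chains on the cells, which were not measured.

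**Figure D5:**
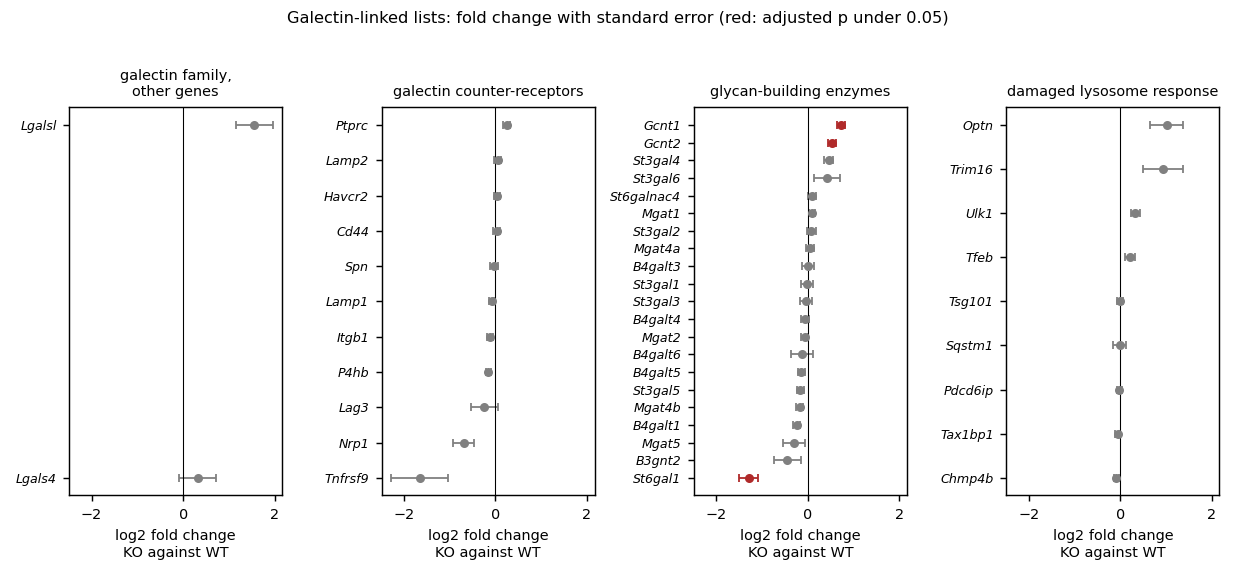
Log2 fold change between KO and WT with its standard error for the tested genes of 4 lists (other galectin genes, counter-receptors, glycan-building enzymes, damaged lysosome response), in red where the edgeR adjusted p was under 0.05. The 3 red genes are *Gcnt1* and *Gcnt2*, which were higher in KO, and *St6gal1*, which was lower.

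Genes of the response to damaged lysosomes, which galectin-3 and galectin-8 are known to trigger, were all tested, 9 in number, and none passed by edgeR, DESeq2 or limma-voom, while 2 of the 9 had an unadjusted p under 0.05, a count to be read beside the 19.4% of all tested genes. The median log2 fold change was −0.01. *Trim16*, a partner of galectin-3, was at 4.01, 4.82 and 7.55 CPM in WT and 14.5, 4.43 and 12.4 CPM in KO (log2 fold change 0.94, edgeR adjusted p = 0.305). *Optn*, an autophagy receptor, was at 3.30 to 4.50 CPM in WT and 4.22 to 11.6 CPM in KO (1.02, adjusted p = 0.18). *Optn* passed without KO1 (adjusted p = 0.0158) and *Trim16* without KO2 (0.0457), so that in either gene 1 library decided the outcome.

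On the chromosomes, 55 tested genes lie within 200 kb of one of the 6 genes. Of these 1 passed, *Gm47021*, a processed pseudogene 179145 bases from *Lgals8*, which rose from 0.263 ± 0.038 to 4.80 ± 0.93 CPM (log2 fold change 4.17, edgeR adjusted p = 0.00142). As a processed pseudogene it can share reads with its parent gene, so its value is uncertain. Of the 55 neighbours, 11 had an unadjusted p under 0.05, as did 19.4% of all tested genes, and DESeq2 passed 4. Around *Itln1* 21 neighbours were tested and none passed, with a smallest adjusted p of 0.101. Of these 21, 5 had an unadjusted p under 0.05, near the share over all tested genes, and DESeq2 passed 2. Around *Lgals9* and *Lgals3bp* 2 and 5 neighbours were tested, none passed by edgeR or DESeq2 and none had an unadjusted p under 0.05.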

How the data were processed

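Poly(A) RNA of the sorted cDC1s was made into strand-specific libraries. The authors aligned the reads to GRCm38 with STAR and deposited 1 table of raw counts per library, whole numbers of uniquely mapped reads per gene without normalization or pooling. The submitters' processing notes name bcl2fastq 2.19.1.403, STAR 2.6.1a, RSEM and DESeq2 1.20.0. The strand column taken from STAR's output is not stated in the paper, labels or files. Because only uniquely mapped reads enter, genes with near-identical copies lose reads.

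Of 54532 identifiers, 54495 matched GENCODE M21, which gave symbols, coordinates and merged exon lengths. Reads that STAR tallied outside genes were left out. The test was edgeR's quasi-likelihood test (edgeR 4.0.16, R 4.3.3) after TMM scaling and filterByExpr (minimum count 10, minimum total 15), with genotype as the sole term, as the study's methods name no covariate, and Benjamini-Hochberg adjustment. No pair of replicates differed by as little as sampling noise (chi-square per degree of freedom 6.77 to 11.3 for WT pairs and 30.5 to 42.3 for KO pairs). The KO libraries thus differed more from each other than the WT libraries did. Alternatives were DESeq2's size factors, the Wald test of DESeq2 1.42.0, limma-voom (limma 3.58.1), no filter, a stricter filter (mean of 1 CPM), a replicate block, each library left out and, for levels, the longest transcript as length or no TMM. Similarity used log2 CPM with a prior count of 2. The fit was tested on simulated data. Python 3.11.15, numpy 2.4.6, pandas 2.3.3 and matplotlib 3.10.9 were used. Promoter windows came from RefSeq.

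The 6 genes and all lists (other galectins, counter-receptors, glycan-building enzymes, damaged lysosome response, interferon-induced genes, and cDC1, cDC2, pDC, monocyte and macrophage, neutrophil, B cell, basophil and mast cell, and T and NK cell markers) were chosen with earlier results of these data known. The genes named are the 6, the other galectins, *Jun*, *Junb*, *Itgax*, genes of the galectin-linked lists with an adjusted p under 0.05 (of the interferon list the 3 with the largest change), the 3 genes most similar to each of the 6, markers of cells that move with them, and neighbours within 200 kb. *Havcr2*, *Cd44*, *Ptprc*, *Nrp1*, *Tnfrsf9*, *St3gal4*, *Trim16*, *Optn*, *Ifi44*, *Stat2*, *Irf8*, *Cadm1*, *Itgae*, *Irf4*, *Sirpa* and *Esam* were named after their values were seen.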

Additional observations from a re-analysis of the deposited data

How the results depend on the processing

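The direction of *Lgals3*, *Lgals9*, *Lgals3bp* and *Lgals8* was the same under 12 of 12 alternatives, with log2 fold changes of −0.48 to −0.34, −1.38 to −1.06, −0.83 to −0.63 and 0.19 to 0.64. *Lgals1* ran from −0.21 (without KO1) to 0.35. The number of called genes was 385 with DESeq2 in place of 240, and 74 to 579 with 1 library left out, the fewest without WT1 and the most without KO1. With DESeq2 1 of the other galectin genes (*Lgalsl*) and 2 counter-receptors (*Ptprc*, *Nrp1*) passed, and without a filter 1 other galectin gene (*Lgalsl*). With 1 library left out, 0 to 1 other galectin genes, 0 to 1 counter-receptors, 0 to 4 glycan-building enzymes, 0 to 1 genes of the lysosome list and 2 to 13 interferon-induced genes passed. The cause of these shifts was not tested. For libraries with the same number, deviations from the genotype mean correlated at 0.091, −0.148 and 0.2. Those of libraries with different numbers correlated at −0.221 to 0.152. The deviations of 3 libraries sum to 0, so these values cannot decide whether equal numbers share a batch. With the replicate block 207 genes were called and 5 interferon-induced genes passed. The block moved no other count of the lists by over 1.5 times. Of the single adjusted p values, 87 crossed to over 0.05 and 7 to under 0.05 under an alternative, and 302 kept their side. The 3 WT libraries held 23666519 to 26788296 reads on genes each. Up to 3 reads over all 3 together limits *Itln1* in WT to 0.0392 CPM. Depth in bulk RNA gives no view of differences between cells.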

Other observations

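The pDC markers, in 8 listed genes of which 7 were tested, held 1 that rose, *Ccr9*, the receptor of the gut chemokine CCL25, from 22.9 ± 1.84 to 60.8 ± 8.99 CPM (log2 fold change 1.41, edgeR adjusted p = 0.00333, at most 0.0313 over the alternatives). The summed list was at 225 to 244 CPM in WT and 245 to 295 CPM in KO. *Ccr9* alone gave 20.8 to 24.0 CPM of it in WT and 52.0 to 69.9 CPM in KO, so the sums show no rise of the other genes. By sign alone 5 of the 7 tested genes were higher and 2 lower in KO. The listed genes *Siglech* and *Bst2* did not pass, with edgeR adjusted p values of 0.0571 and 0.0572. They were at 7.79 to 10.8 and 89.1 to 109 CPM in WT and 16.5 to 37.5 and 70.5 to 79.0 CPM in KO.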
